A study of Saccharomyces cerevisiae with 24 samples.

Results

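The bases described here are those of mature ribosomal RNA sequence that were read deeply enough, without any chemical probe, both in early small-subunit precursors and in finished ribosomes of the yeast Saccharomyces cerevisiae. They were the bases of 18S, 5.8S and 25S within RDN37, the polymerase I precursor transcript encoded in the rDNA array on chromosome XII, with an effective depth of at least 50 reads in all 12 untreated libraries. That left 3254 of 5354 bases, of which 1481 of 1800 lay in 18S, 117 of 158 in 5.8S and 1656 of 3396 in 25S. The value compared was the mutation rate, the percentage of reads that differ from the reference at a base. The series held 24 DMS-MaPseq libraries, and the 12 untreated ones formed 4 groups of 3 biological replicates. Pre-40S particles were taken through Utp9 carrying a TAP tag, from cells with wild-type Rrp5 and H375A (WT) or with Rrp5_mL and H375A (mL), so that both pre-40S groups carried H375A. Mature ribosomes came from BY4741, a standard laboratory strain, or from BY4741 Δsnr31,Δsnr54, called the deletion, which lacks the guide RNAs for pseudouridine at 18S U999 and 2′-O-methylation at 18S A974. All cells were grown in YPD to mid-log phase. The labels do not say which protein carries H375A or what mL stands for. Particle, strain and experiment changed together, so they cannot be told apart.

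Ribosomal RNA is modified at many bases while the ribosome is assembled. Most modifications are pseudouridines and 2′-O-methyl groups placed by guide RNAs early on the precursor, and a few bases receive a methyl, acetyl or aminocarboxypropyl (acp) group on the base itself from stand-alone enzymes, some of them only at late, cytoplasmic steps. A group that blocks Watson-Crick pairing makes reverse transcriptase, here TGIRT-III, insert a wrong base, so that the mutation rate without DMS (dimethyl sulfate) marks such a modification. Pseudouridine and 2′-O-methylation leave the pairing face free and are read mostly as the normal base.

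The 12 listed bases with a group on the base itself are shown in the RNA sense, 5′ to 3′, with the modified base in capitals. The 12 bases on each side are taken from the sequence column of the deposited profiles. Those at C and G had low mature rates, given below, and whether an untreated rate there reads the group was not tested. Positions are counted from 1 at the first base of each mature RNA. U1191 carries N1-methyl-N3-acp-pseudouridine, C1280 and C1773 carry N4-acetylcytidine, G1575 carries N7-methylguanosine, and A1781 and A1782 are dimethylated. In 25S, A645 and A2142 carry N1-methyladenosine, C2278 and C2870 carry 5-methylcytidine, and U2634 and U2843 carry N3-methyluridine.
18S U1191: gcuuaauuugacUcaacacggggaa
18S C1280: guggugcauggcCguucuuaguugg
18S G1575: cucuucaacgagGaauuccuaguaa
18S C1773: uaacaagguuucCguaggugaaccu
18S A1781 and A1782: uuuccguaggugAAccugcggaagg
25S A645: ccgcccgucuugAaacacggaccaa
25S A2142: gacugucuaauuAaaacauagcauu
25S C2278: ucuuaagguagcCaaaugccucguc
25S U2634: cggcacaucuguUaaacgauaacgc
25S U2843: gcagucaagcguUcauagcgacauu
25S C2870: uuuuugauucuuCgaugucggcucu

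The libraries differed in depth and in what they covered. In pre-40S libraries the median nucleotide was read 54 to 610 times and the mutations summed to 1250 to 249088. In mature libraries it was read 36871 to 87918 times, with 381072 to 920477 mutations. Pre-40S libraries covered the upstream spacer, or 5′ ETS, at 0.864 to 1.68 times the 18S median depth (median 1.55, n = 6). The mature libraries read it at 0.000272 to 0.000887 times. ITS1, between 18S and 5.8S, had 0.348 to 0.538 of the 18S depth in pre-40S libraries and 0.00113 to 0.00364 in mature ones. The 5′ ETS is cut away at early steps, so the libraries labelled pre-40S held RNA that is removed before late pre-40S particles form. They also held 25S, at 0.698 to 0.843 times the 18S depth, against 2.02 to 2.44 in the mature libraries, and ITS2 at 0.237 to 0.433 of the 25S depth against 0.0029 to 0.00493. The labels call the mature material both 40S and ribosomes. WT replicate 1 was the shallowest library, and 2099 bases missed the rule only for its sake. WT replicate 2 stood apart. It had the lowest 5′ ETS and ITS1 ratios of the 6, and its 18S depth reached 399112 reads in a stretch at the 5′ end. Values without it are given where it moved a result. Molecular identifiers are not mentioned, and intervals therefore cover counting error only.

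**Figure D1:**
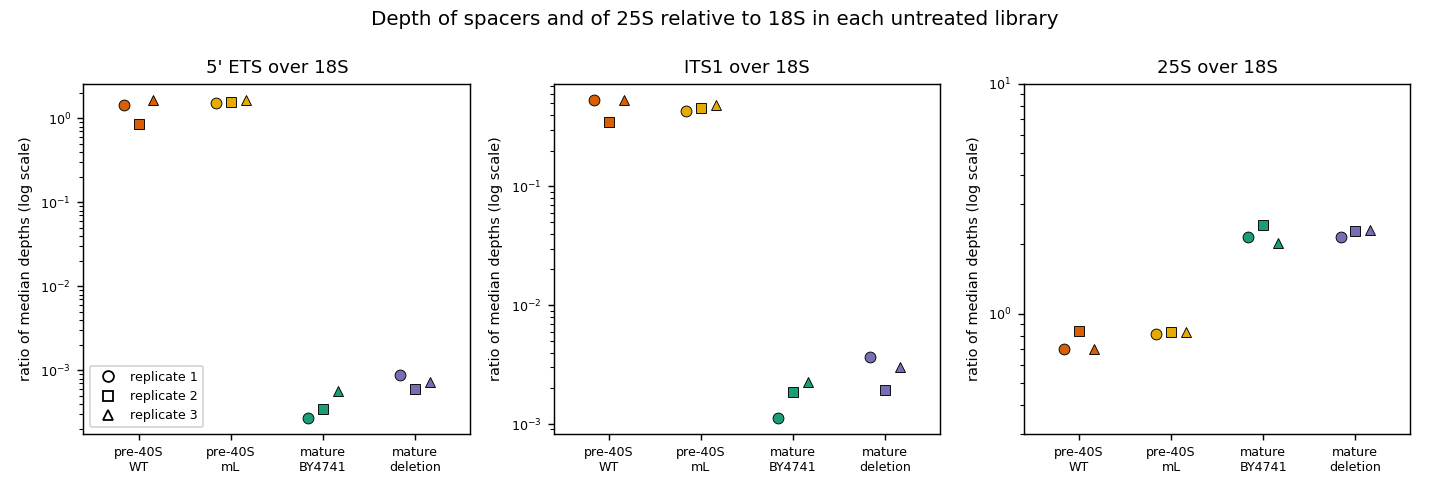
Median depth of the 5′ ETS, of ITS1 and of 25S over the median depth of 18S, on log axes, for each of the 12 untreated libraries (points, marked by replicate number). All 6 pre-40S libraries lie between 0.864 and 1.68 for the 5′ ETS and all 6 mature libraries between 0.000272 and 0.000887.

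At 18S U1191, whose modification is completed late, pre-40S particles were mutated far less often than mature ribosomes. The pseudouridine there is made with snR35, Emg1 adds the N1-methyl group, and Tsr3 adds the acp group on late cytoplasmic precursors. The rate was 28.5%, 30.8% and 28.3% in the 3 mL libraries, and 18.9%, 50.3% and 13.6% in the WT libraries. The 6 mature libraries lay between 84.9% and 86.2% with a median of 85.7%. Every pre-40S library was below every mature library, and WT replicate 2 was the highest of the pre-40S libraries. The means were 28.4% ± 12.6 and 85.6% ± 0.440 (SD, n = 6 each), so that pre-40S particles had 33.2% of the mature rate. On a log2 scale, where positive is higher in pre-40S, the change was -1.57 (SE 0.515, edgeR quasi-likelihood test, Benjamini-Hochberg adjusted p = 0.0333). Depth limited single libraries: the 10 mutations in 53 reads of WT replicate 1 have a Wilson 95% interval of 10.6% to 31.4%. The edgeR call was lost in 10 of 27 alternatives, among them a block on the replicate number (log2 -1.64, adjusted p = 0.075) and leaving out WT replicate 1 or 3, mL replicate 3, BY4741 replicate 3 or any deletion replicate (log2 -1.4 to -1.58, adjusted p = 0.0587 to 0.122). Without WT replicate 2 the change was -2.0 (edgeR adjusted p = 0.00879).

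The DMS-treated libraries, which took no part in choosing the bases, gave a separate reading of U1191, since DMS marks A and C. The rate was 7.03% to 31.8% (median 13.5%) in the 6 treated pre-40S libraries and 81.2% to 83.9% (median 81.5%) in the 6 treated mature libraries. The groups did not overlap, and the log2 change was -2.34 (SE 0.220, edgeR adjusted p = 4.89e-24).

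The N3-methyluridines of 25S had a like pattern, although their enzymes act on the large subunit. Bmt5 methylates U2634 and Bmt6 methylates U2843. Both fell short of the depth rule in WT replicate 1 alone, with 35 and 48 reads, and were tested with a minimum of 20 reads. U2634 was mutated in 39.9%, 41.7% and 33.8% of reads in the mL libraries and in 28.6%, 45.6% and 24.1% in the WT libraries. The mature libraries gave 86.7% to 87.5% (median 87.1%). No pre-40S library came near the mature range, and WT replicate 2 was again the highest. The log2 change was -1.29 (SE 0.294, edgeR adjusted p = 0.00244). U2843 was mutated in 33.0%, 32.0% and 31.6% of reads with mL, in 27.1%, 46.9% and 27.7% with WT, and in 83.4% to 84.6% (median 83.8%) in the mature libraries. WT replicate 2 lay apart from 5 libraries that covered 27.1% to 33.0%. The log2 change was -1.34 (SE 0.287, edgeR adjusted p = 0.00135). The changes without WT replicate 2 were -1.47 at U2634 (edgeR adjusted p = 7.04e-06) and -1.50 at U2843 (edgeR adjusted p = 1.69e-06). Relative to mature ribosomes, pre-40S libraries had 40.8% of the rate at U2634 and 39.4% at U2843. In the DMS-treated libraries the changes were -1.36 (SE 0.222, edgeR adjusted p = 7.08e-08) and -1.98 (SE 0.214, edgeR adjusted p = 4.15e-18). Which particles the 25S reads of the pre-40S libraries came from was not tested. WT replicate 2, the highest library at U1191, U2634 and U2843, also had the lowest 5′ ETS ratio, and the part of that in its rates was not tested.

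At the N1-methyladenosines of 25S no difference between particles was called. Rrp8 methylates A645 and Bmt2 methylates A2142, and both bases also had too few reads in WT replicate 1, at 33 and 29. A645 was mutated in 76.0%, 74.7% and 76.0% of reads with mL and in 84.8%, 78.9% and 74.6% with WT, against 87.4% to 88.6% (median 88.1%) in mature ribosomes. The groups did not overlap, but the difference was small, at 88.1% of the mature rate, and edgeR did not call it (log2 change -0.19, SE 0.272, adjusted p = 0.721 at the 20-read minimum). A2142 had 58.8%, 61.2% and 70.4% with mL and 51.7%, 62.3% and 63.0% with WT, against 57.0% to 61.7% (median 58.2%) in mature ribosomes. Its ranges overlapped (log2 change 0.06, SE 0.280, edgeR adjusted p = 0.876). Among these N3-methyluridines and N1-methyladenosines of 25S, then, the pre-40S level relative to mature ran from 39.4% at U2843 to 104% at A2142. They lie too far apart for a 100 bp read to cover more than 1 of them. These ratios are descriptions and were not tested against each other.

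The pair of adenines near the 3′ end of 18S is dimethylated by Dim1, which acts on late pre-40S particles. A1782 was mutated in 1.69%, 2.65% and 1.04% of reads with mL and in 1.00%, 3.08% and 1.93% with WT. The mature libraries gave 5.34% to 6.51% (median 6.23%). Every pre-40S value was lower, and the means were 1.90% ± 0.844 and 6.05% ± 0.435 (SD, n = 6). The log2 change was -1.61 (SE 0.357, edgeR adjusted p = 0.00173), and it was called in all 28 alternatives run (adjusted p from 4.77e-11 to 0.0185). At A1781 the untreated rates were low in both, at 0.146% ± 0.194 and 0.301% ± 0.0307. The ranges overlapped, and the change was not called (log2 -0.74, SE 0.573, edgeR adjusted p = 0.436). Without WT replicate 2 the WT group had no mutation left at A1781, and the fitted change was -4.62 (edgeR adjusted p = 0.141). DMS set the particles apart at this base. In the treated libraries A1781 had 2.10% to 7.27% (median 3.58%) in pre-40S particles and 0.110% to 0.321% (median 0.203%) in mature ribosomes. The treated groups did not overlap, and this difference between treated libraries was not tested, since A is probed by DMS. At A1782 the treated rates were 3.47% to 6.29% in pre-40S and 5.18% to 7.84% in mature libraries.

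**Figure D2:**
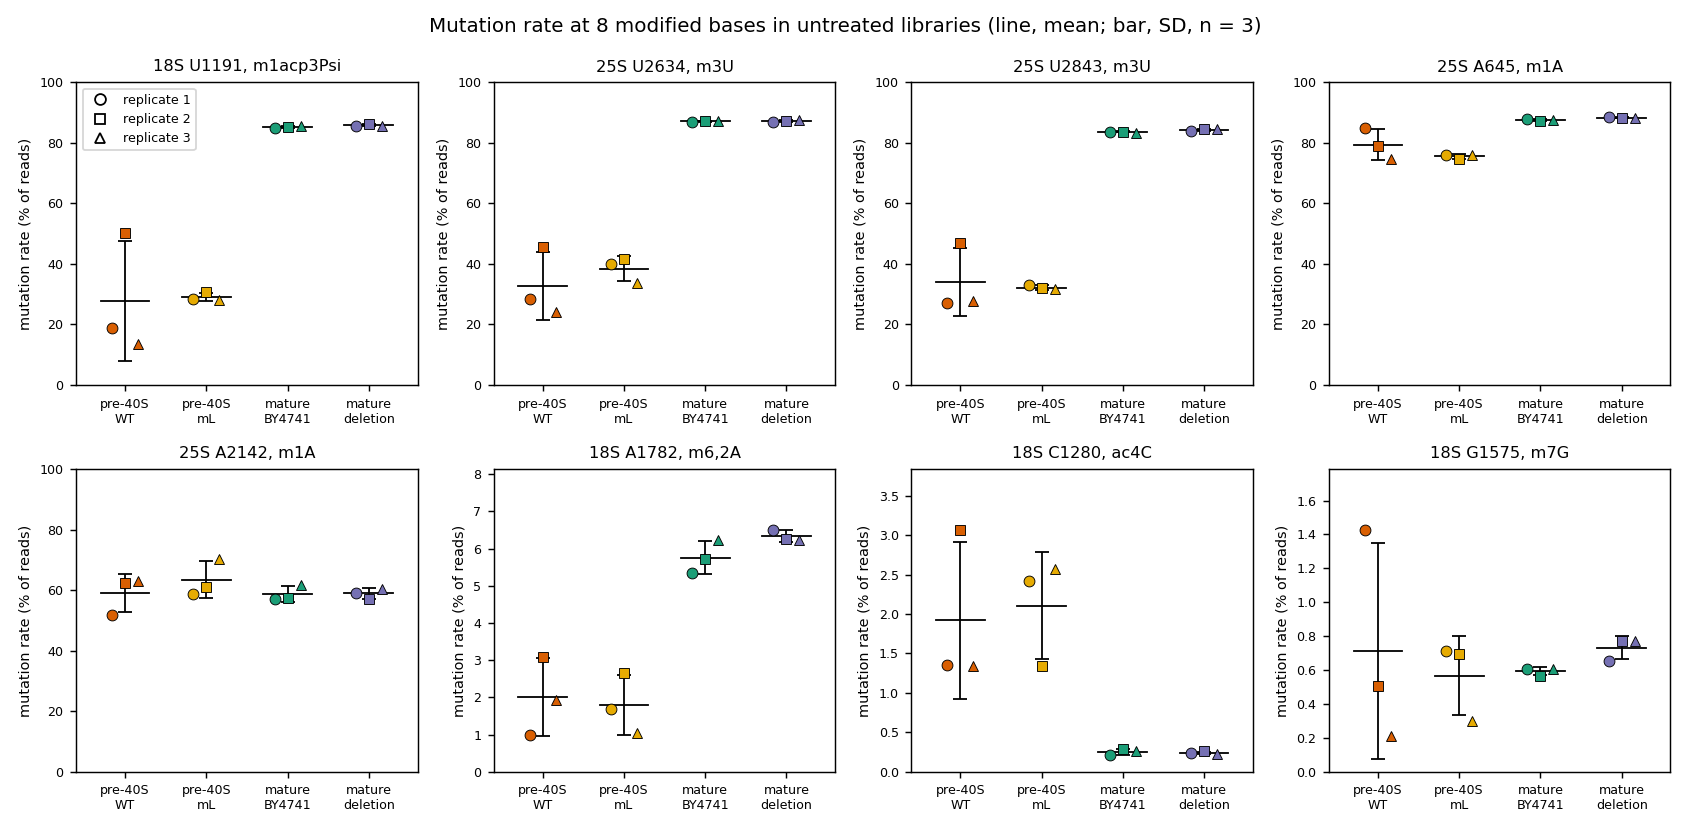
Untreated mutation rate, in percent of reads, at 8 of the 12 bases in each library (points, marked by replicate number), with the mean (line) and SD (bar, n = 3) of each group. At U1191, U2634, U2843, A645 and A1782 every pre-40S library lies below every mature library, although the small difference at A645 was not called. At C1280 every pre-40S library lies above.

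The acetylated cytidines went the other way. Kre33 acetylates C1280 with the guide snR4 and C1773 with snR45. C1280 was mutated in 2.42%, 1.34% and 2.57% of reads with mL and in 1.35%, 3.07% and 1.34% with WT, against 0.209% to 0.285% (median 0.246%) in mature ribosomes. All 6 pre-40S libraries were higher, at 2.01% ± 0.766 against 0.245% ± 0.0277 (SD, n = 6). The log2 change was 3.17 (SE 0.246, edgeR adjusted p = 7.37e-10). C1280 was called in all 27 alternatives run, and with a library factor that divides out the general difference described below the change was 1.21 (edgeR adjusted p = 0.00242). C1773 had 0.935%, 0% and 0.453% with mL and 1.98%, 1.12% and 0.698% with WT, against 0.188% to 0.290% in mature ribosomes. The groups overlapped through the mL library at 0%. Its log2 change of 1.53 (SE 0.412, edgeR adjusted p = 0.00935) became -0.36 with the library factor (edgeR adjusted p = 0.497). The call was also lost without WT replicate 2 (1.46, edgeR adjusted p = 0.0598), mL replicate 1 (1.17, adjusted p = 0.152) or mL replicate 3 (1.57, adjusted p = 0.0517).

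The other ring-modified bases were read at low rates. Bud23 methylates G1575, which had 0.641% ± 0.436 in pre-40S and 0.664% ± 0.0873 in mature libraries (SD, n = 6). The ranges overlapped and the change was not called (log2 -0.42, SE 0.382, edgeR adjusted p = 0.496), and with the library factor it was -2.42 (edgeR adjusted p = 2.88e-05). Nop2 methylates C2870, which was higher in pre-40S particles at 0.338% ± 0.288 against 0.0771% ± 0.0212 (log2 2.46, SE 0.640, edgeR adjusted p = 0.0073), although 2 of 6 pre-40S libraries had no mutation. Without WT replicate 2 this change became -2.92 (edgeR adjusted p = 0.905), and without mL replicate 3 it was 2.37 (edgeR adjusted p = 0.0518). C2278, a target of Rcm1, had 2 of 6 pre-40S libraries above 0 and was not called (log2 0.39, SE 0.989, edgeR adjusted p = 0.808).

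Most bases that differed were not among these. Of the 3254 bases, 3231 had at least 30 mutations over the 12 libraries and were tested, and 23 were not. edgeR called 530 higher in pre-40S particles (16.4% of those tested) and 42 lower (1.3%). Among the 8 listed bases that met the depth rule, 3 were higher (C1280, C1773 and C2870) and 2 lower (U1191 and A1782). With the 20-read minimum, 769 of 5312 bases were higher (14.5%) and 55 lower (1.04%), and of the 12 listed bases 3 were higher and 4 lower. The median fitted log2 change of all tested bases was 0.59, and 1 library decided its sign: it was -1.47 without WT replicate 2 and 0.11 without mL replicate 3. At the 99 bases with a depth of at least 200 the median was -0.61. Most of these 99 lay in the deep stretch at the 5′ end of 18S, described further on. The part of bases with no mutation in a group in these medians was not tested. Pooled over bases in none of the lists, the rate was 0.258% to 0.690% in pre-40S libraries and 0.0853% to 0.147% in mature ones, a ratio of medians of 3.08 (log2 1.62). With WT replicate 2 left out edgeR called 238 higher and 19 lower. With a minimum depth of 100 it called 36 of 304 bases higher and 35 lower, and at 200 it called 5 of 99 higher and 33 lower. WT replicate 1 had a median 18S depth of 70, so a minimum of 200 left mostly the deep stretch. The counts at 200 therefore describe that stretch and not well-read bases in general.

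The split of the counts depends on how this general difference is treated. With each library scaled by its pooled rate over unlisted bases, edgeR called 145 bases higher and 800 lower, and with deep bases, described further on, also left out, 134 higher and 283 lower of 3029. All 42 bases called lower without the factor were also called lower with it, and 142 were called higher both ways. The factor lowers pre-40S rates relative to mature ones at every base, so the first of these counts is no separate support. Of the 8 listed bases, 1 was then higher and 4 lower. With deep bases left out, the pooled rate of unlisted bases was 0.156% to 0.373% in pre-40S and 0.0842% to 0.107% in mature libraries, a ratio of medians of 2.82. By base, also without deep bases, the pooled rate at unlisted A was 0.118% to 0.380% in pre-40S and 0.0307% to 0.0588% in mature libraries. At C it was 0.157% to 0.444% and 0.0684% to 0.106%, at U 0.108% to 0.486% and 0.029% to 0.0641%, and at G 0.224% to 0.437% and 0.162% to 0.213%. All 4 bases were higher in every pre-40S library than in every mature library.

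**Figure D3:**
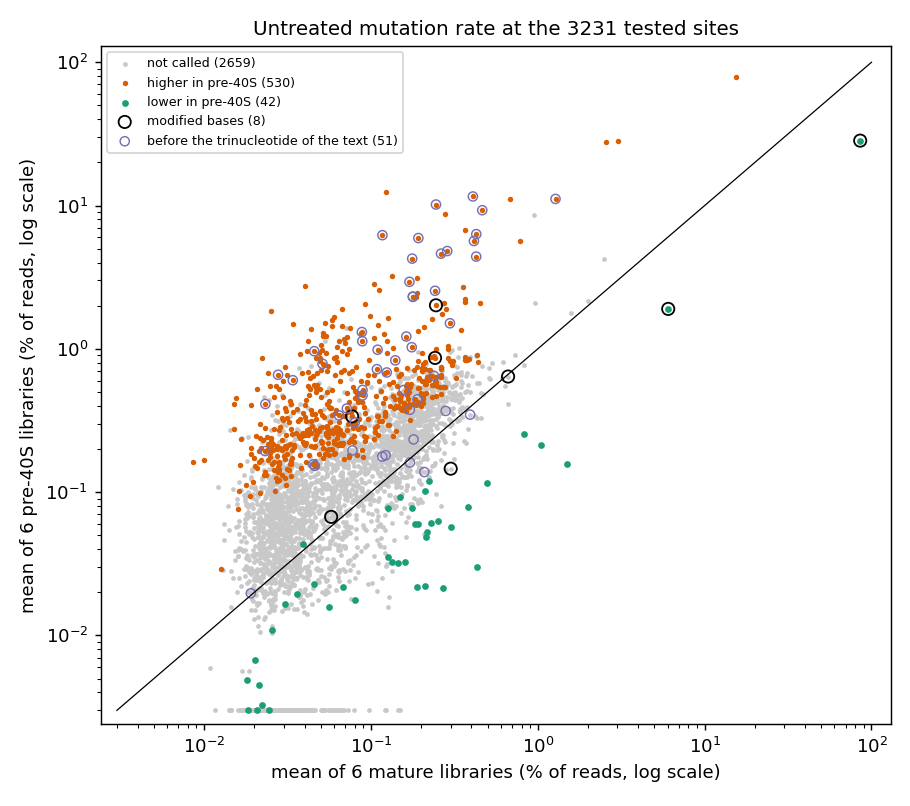
Mean untreated mutation rate of the 6 pre-40S libraries against that of the 6 mature libraries, in percent of reads on log axes, for the 3231 tested bases (points). Orange points are the 530 called higher and green points the 42 called lower in pre-40S, black rings mark the 8 modified bases, violet rings the 51 bases followed by AGC, means at or near 0 are drawn at the lower edge, and the line marks equal rates.

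Pseudouridines, which the RNA-guided enzyme Cbf5 makes on the precursor, were called in the direction of pre-40S particles or not at all. Of 21 tested sites, 11 were called higher, none lower and 10 in neither direction, with a median log2 change of 2.58 beside 0.59 for all tested bases, and 122 of all 849 tested U were higher. The rates themselves lay near those of other U. Listed pseudouridines had median site means of 0.187% in pre-40S and 0.0304% in mature libraries. Pooled over unlisted U of ordinary depth, the library medians were 0.174% and 0.0361%. These are unlike measures, and pseudouridines were not tested against other U. With the library factor 4 were higher and 2 lower. At the 20-read minimum 17 of 43 were higher and none lower. Among the sites that met the depth rule the highest mature mean was 0.0735% ± 0.0356 at 18S U999, the snR31 target. U999 had 1.74%, 2.16% and 0.162% with mL, 0%, 0.849% and 1.08% with WT, and 0.0298% to 0.129% in mature libraries of both strains. The deletion lacks the guide for this base, so the mature values at U999 are not all those of a pseudouridine. The ranges overlapped through WT replicate 1, where no mutation was read (log2 3.83, SE 0.588, edgeR adjusted p = 1.99e-05). Of the pseudouridines short of the depth rule, U966, U2351 and U2735 had high pre-40S rates. U966 of 25S had 4.76% to 11.1% (median 8.76%) against 0.0401% to 0.620% (log2 4.95, edgeR adjusted p = 1.05e-08). U2351 had 2.63% to 38.3% (median 9.94%) against 0.115% to 2.46% (log2 4.48, edgeR adjusted p = 1.03e-06), and WT replicate 2 was its highest library. U2735 had 0% to 12.03% (median 6.97%) against 0.0357% to 0.355% (log2 5.64, edgeR adjusted p = 8.72e-10). The 3 changes without WT replicate 2 were 4.76, 3.61 and 5.12 (edgeR adjusted p = 2.67e-06, 0.000263 and 9.29e-05).

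Sites of 2′-O-methylation, which Nop1 places with box C/D guide RNAs, were called in both directions. Of 37 tested, 9 were called higher and 1 lower, beside 16.4% and 1.3% of all tested bases, with a median log2 change of 0.85, and with the library factor none was higher and 11 were lower. The highest mature rate in the list was at 18S U578, at 1.57% ± 0.326 against 1.78% ± 1.37 in pre-40S libraries (log2 -0.18, SE 0.337, edgeR adjusted p = 0.761), where the fitted change and the difference of the means have opposite signs. The site called lower, 18S A28, lies in the deep stretch described below. At 25S G1450, tested only at the 20-read minimum, 4 of 6 pre-40S libraries had no mutation and the other two had 0.315% and 0.449%, against 0.654% to 1.16% in mature ribosomes. Its groups did not overlap (log2 -3.01, SE 0.663, edgeR adjusted p = 0.00172), and the DMS-treated libraries gave -6.54 (SE 1.53, edgeR adjusted p = 0.000532). Of the 37 tested bases within 3 nt of a ring-modified base, 5 were called higher and none lower, beside 16.4% and 1.3% of all tested bases.

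Without the library factor, few bases outside the deep stretch were called as mutated more in mature ribosomes. Of the 42 lower calls 8 lay at bases of ordinary depth, and besides U1191 and A1782 these were 18S C342, C343, G461 and G899 and 25S G406 and A2398. None of these 6 is in the lists of modified bases used here. The rule for named bases, groups apart and a mean of at least 0.5%, took 5 of the 8, among them the 3 shown here with the base in capitals.
18S C342: gauaguggccuaCcaugguuucaac
18S G899: auucaauugucaGaggugaaauucu
25S G406: gaaaaaguacguGaaauuguugaaa
C342 had 0% in 3 pre-40S libraries, 0.169%, 0.587% and 0.194% in the others, and 1.26% to 1.75% (median 1.49%) in mature ribosomes. A count of 0 allows up to 0.673% in WT replicate 3 and up to 5.08% in WT replicate 1. The log2 change was -3.31 (SE 0.559, edgeR adjusted p = 6.99e-05), and C342 was called in all 27 alternatives run. It was -6.81 without WT replicate 2, where the WT group had no mutation left. G899 had 0% to 0.577% against 0.871% to 1.23% (log2 -2.21, SE 0.486, edgeR adjusted p = 0.00167), and the DMS-treated libraries gave -1.13 (edgeR adjusted p = 0.0706). G406 had 0% to 0.725% against 0.764% to 0.903% (log2 -1.86, SE 0.508, edgeR adjusted p = 0.0107). Without WT replicate 2 the change at G406 was -1.39 (edgeR adjusted p = 0.183). At the 20-read minimum C343 and G461 also lost their calls when that library was left out (edgeR adjusted p = 0.137 and 0.253).

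At the 20-read minimum 13 further bases of ordinary depth were lower in pre-40S particles, all in 25S, U2634, U2843 and G1450 among them. At 6 of the 13 no mutation was read in any pre-40S library. 25S U1549 had 0.507% to 0.783% in mature ribosomes, at least 3.94-fold higher than the 3 counts over the pre-40S group that a count of 0 allows (edgeR adjusted p = 0.000553). 25S A317 had 0.335% to 0.499%, at least 3.29-fold higher by the same floor (edgeR adjusted p = 0.00122). Among those with mutations in both, G588 had 0% to 0.712% against 1.57% to 2.13% (log2 -2.17, edgeR adjusted p = 0.00161). C1870 had 0% to 0.318% against 1.397% to 1.74% (log2 -2.91, edgeR adjusted p = 0.000256), and G934 had 0% to 0.372% against 0.993% to 1.27% (log2 -3.16, edgeR adjusted p = 0.000185). Without WT replicate 2 edgeR called 9 of the 13, these 5 and G1450 among them, with changes of -7.34 at G588, -7.52 at C1870 and -2.01 at G934. None of these 5 is in the lists of modified bases used here. In the DMS-treated libraries, tested at G and U only, U1549 had a log2 change of -2.29 (edgeR adjusted p = 0.03). G934 had -2.04 there (edgeR adjusted p = 0.00434), and G588 was not called lower.

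Among the bases that met the depth rule, the largest changes toward pre-40S particles with groups apart were at unlisted bases. The 10 with the largest change, among those with a mean of at least 0.5% and groups apart, were 18S U3, A65, U125, A605 and A940 and 25S A746, U1445, A1545, A2896 and U2924. A605 had 9.31%, 10.6% and 7.10% with mL and 4.0%, 14.7% and 6.52% with WT, against 0.0324% to 0.717% in mature ribosomes (log2 5.11, SE 0.467, edgeR adjusted p = 7.76e-09). A940 had 14.5%, 12.7% and 7.94% with mL and 8.93%, 16.3% and 9.06% with WT, against 0.0526% to 1.00% (log2 4.87, SE 0.480, edgeR adjusted p = 2.93e-08). WT replicate 2 was the highest pre-40S library and BY4741 replicate 2 the highest mature library at both. A2896 of 25S had 9.44%, 14.2% and 5.21% with mL and 1.89%, 23.5% and 6.77% with WT, against 0.0275% to 0.603% (log2 5.49, SE 0.563, edgeR adjusted p = 4.69e-08). The other 7 had pre-40S means of 0.870% to 12.3% and mature means of 0.0222% to 0.192%. The changes of the 10 without WT replicate 2 were 3.63 to 5.52, with U1445 no longer called (edgeR adjusted p = 0.214), and without BY4741 replicate 2 they were 4.95 to 9.13. At 18S A65 and U125 and 25S A746, U1445, A1545, A2896 and U2924, WT replicate 1 held 1 mutation in 51 to 105 reads. At each of these bases, the groups being apart depended on that 1 read. The 1.89% at A2896 was 1 mutation in 53 reads, with a Wilson interval of 0.334% to 9.94%.

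Of these 10, 3 stood just before AGC in the RNA (A940, A1545 and A2896) and 3 before AGU (U125, A605 and U1445). The trinucleotide was noticed after the values were seen, and what follows is a description with no test. The windows belong to those 3 and to 3 other called bases with a pre-40S mean of at least 4%, and the capitals mark AGC, which starts 1 base 3′ of the site that was mutated.
18S A940: uacugcgaaAGCauuugccaa
18S U593: agcuccaauAGCguauauuaa
25S U1293: gaaugaacuAGCccugaaaau
25S A1545: agauggggaAGCuccguuuca
25S U2148: uuaaaacauAGCauugcgaug
25S A2896: ucauaccgaAGCagaauucgg
Of the 51 tested bases followed by AGC, 38 were called higher in pre-40S particles (74.5%), the highest share among the 64 trinucleotides, and AGU was next with 25 of 58. AGC followed 1.58% of all tested bases, 7.17% of the 530 called higher, and 12 of the 20 called bases with a pre-40S mean of at least 4% (60.0%). Pooled over unlisted bases of ordinary depth, the rate before AGC was 0.948% to 3.05% in pre-40S libraries (median 1.55%) and 0.0686% to 0.335% in mature ones (median 0.145%). At all other such bases it was 0.143% to 0.324% and 0.0831% to 0.103%. Both kinds of base were higher in every pre-40S library, and WT replicate 2 and BY4741 replicate 2 were the highest of their particle at both kinds. With bases followed by AG left out, 91.6% of edgeR's calls over 2999 bases were higher in pre-40S particles, against 92.7% over all 3231. The pseudouridines U966 and U2351 of 25S, described above, are followed by AGC as well. The part of reading errors at such sequences in the higher pre-40S rates was not tested.

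**Figure D4:**
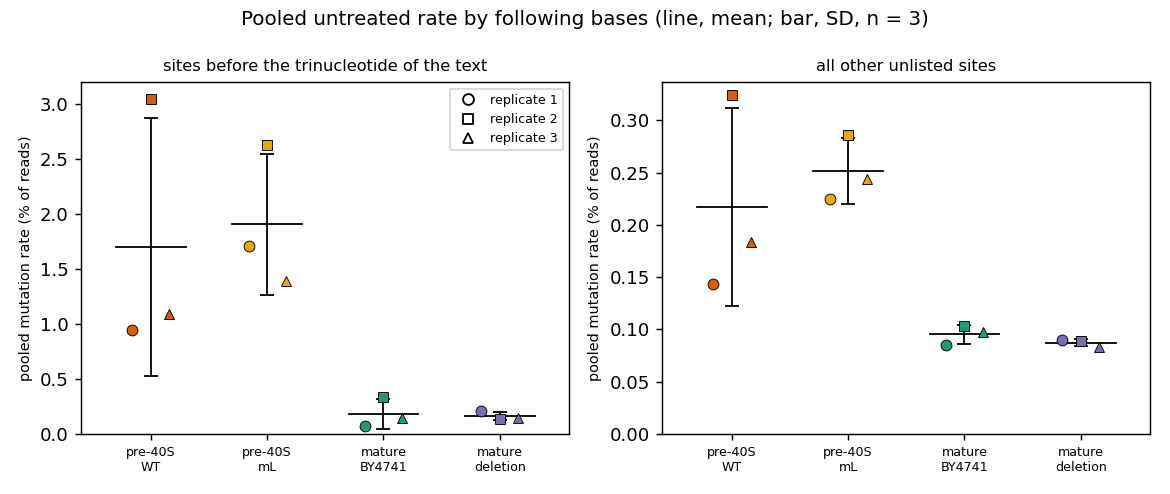
Pooled untreated mutation rate, in percent of reads, at unlisted bases followed by AGC (left) and at all other unlisted bases of ordinary depth (right), for each library (points, marked by replicate number), with group mean (line) and SD (bar, n = 3). Before AGC the pre-40S libraries lie between 0.948% and 3.05% and the mature libraries between 0.0686% and 0.335%.

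The 5′ end of 18S, which gave 110 of the tested bases, was read far more deeply than the rest in some libraries. The highest depth there was 5.96 to 553 times the library's 18S median in the 6 untreated pre-40S libraries, with WT replicate 2 at 553, and 4.15 times in BY4741 replicate 2. The other 5 mature libraries had 2.04 to 2.53 times, and the treated pre-40S libraries 1.02 to 1.28 times. The excess had sharp edges. A base was called deep where any untreated library exceeded 3 times the median of its region, which 202 tested bases did. Of these, 34 were called lower in pre-40S particles and 26 higher, and 32 of the 42 lower calls were among those 110 bases. At the edges of the excess, rates were high. A119 had 59.9% to 99.6% in pre-40S libraries and 2.13% to 3.96% in mature ones except BY4741 replicate 2, at 78.5%. U128 had 7.95% to 88.4% (median 14.5%) against 0.0992% to 0.197% in 5 mature libraries and 14.7% in BY4741 replicate 2. Without deep bases 501 of 3029 were higher in pre-40S particles and 7 lower. The values at U3, A65, A119 and U128 were read in or beside this excess, and its part in them was not tested.

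**Figure D5:**
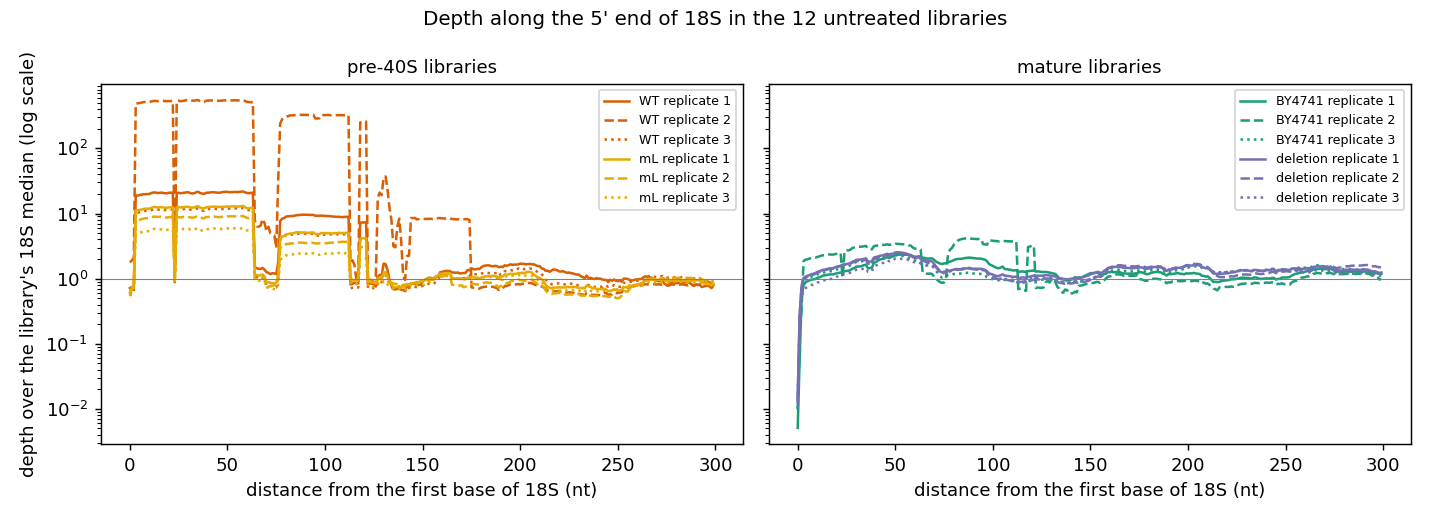
Depth at each base over the library's own 18S median, on a log axis, against the distance from the first base of 18S, for the 6 pre-40S libraries (left) and the 6 mature libraries (right). WT replicate 2 reaches 553 times its median, the other pre-40S libraries 5.96 to 21.8 times, and BY4741 replicate 2 reaches 4.15 times.

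Each pre-40S strain was also set against BY4741, and the pairs share those 3 libraries. With WT, 314 of 3231 bases differed (9.72%), 269 higher and 45 lower, and with the library factor 104 higher and 577 lower. Of the 8 listed bases C1280 and C1773 were higher, at log2 changes of 3.20 (edgeR adjusted p = 3.31e-07) and 2.05 (edgeR adjusted p = 0.00814). With mL, 518 differed (16.0%), 508 higher and 10 lower, and with the factor 112 and 52. C1280 and C2870 were higher and A1782 was lower, at 3.09 (edgeR adjusted p = 1.56e-06), 2.73 (edgeR adjusted p = 0.0238) and -1.75 (edgeR adjusted p = 0.0196). At U1191 the WT and mL changes were -1.59 (SE 0.732, edgeR adjusted p = 0.214) and -1.55 (SE 0.724, edgeR adjusted p = 0.154), and neither was called in this fit. With its own fit against both mature groups, mL gave -1.55 (edgeR adjusted p = 7.2e-07) and WT -1.59 (edgeR adjusted p = 0.0909). The WT count was 31 without WT replicate 2. Between mL and WT themselves 7 bases differed (0.217%), 5 higher and 2 lower with mL, none of them listed. The 5 higher were 18S C18, C25, G95, C97 and U121, and the 2 lower were U24 and U144. All 5 higher ones were deep bases, and with deep bases left out edgeR called 0 of 3029 higher and 2 lower. U24 and U144 were mutated in WT replicate 2, at 4.41% and 4.53%, and at 0% in the other 5 pre-40S libraries. Without WT replicate 2 edgeR called none of the 3231 bases between mL and WT, with 117 at an unadjusted p under 0.05, and with all libraries DESeq2 called 7 and limma none.

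At G and U, which DMS does not mark on the pairing face, the treated libraries could be compared with the untreated ones over different samples. In mature libraries the median pooled rate of unlisted U of ordinary depth was 0.0622% with DMS and 0.0361% without (n = 6 each). For G it was 0.183% and 0.191%. Single U, such as 25S U3275 and 18S U558 given at the end, had far higher mature rates with DMS. The part of DMS in treated rates at G and U was not tested. edgeR called 472 of 2834 treated G and U higher in pre-40S particles (16.7%) and 15 lower (0.529%). With the library factor it called 48 higher and 51 lower. Of 1743 such bases tested both ways, 233 were higher untreated and 336 higher treated, and 102 were higher in both, 43.8% of the first and 30.4% of the second. Lower calls numbered 31 untreated and 8 treated, and 1, U1191, was in both, 3.23% of the first and 12.5% of the second. The 5′ end of 18S had no such excess depth in the treated pre-40S libraries. Before AGC, 19 of 35 treated G and U were called higher in pre-40S particles. Among the named bases, U125 had a treated log2 change of 2.88 (edgeR adjusted p = 2.80e-06), U1445 of 25S 3.17 (edgeR adjusted p = 1.27e-14) and U2924 of 25S 2.75 (edgeR adjusted p = 4.97e-05). U3 of 18S, at 59.7% in untreated WT replicate 2, had 0% to 1.18% in the treated pre-40S libraries and was not called there (log2 -2.75, edgeR adjusted p = 0.441).

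At the depth threshold itself, 108 bases had exactly 50 reads in their shallowest library and 110 had 49. Their pooled rates were 0.239% and 0.396% in pre-40S libraries and 0.0907% and 0.103% in mature ones. Among the listed bases U1191, with 53 reads in WT replicate 1, lay just inside and U2843, with 48, just outside.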

How the data were processed

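For each of the 6858 nucleotides of RDN37 the deposited profiles give counts of mutated reads and of effective depth. The deposited rate is a fraction, mutated reads over depth. Reads were single-end, 100 bp, and the submitters' processing notes name Bowtie2; neither labels nor headers name the mutation counter or build. Region bounds came from the RDN37 features of the R64 reference table. The mutation counts of the 12 untreated libraries were tested with edgeR 4.0.16 in R 4.3.3 (quasi-likelihood, 4 group means, offset log effective depth, no library factor, contrast mean of both pre-40S groups minus mean of both mature groups), with Benjamini-Hochberg adjustment over all tested bases and calls at an adjusted p under 0.05. Bases needed a depth of 50 in all 12 and 30 mutations in all. The procedure was also run on simulated counts with planted changes and a fixed dispersion. That simulation held no outlying library and no general rate difference between particles, so it does not cover those features of these data. DMS-treated libraries were fitted the same way at G and U. Named bases are the 12 ring-modified bases and the called bases with the largest changes (up to 10 each way, groups apart, mean rate of at least 0.5%); 2 listed 2′-O-methyl sites were dropped because the letter differed. The bases and lists were chosen with earlier results of these data known. Deviations of same-numbered WT and BY4741 libraries from their group means correlated (r = 0.586, 0.791 and 0.571 over 149 bases). No other pair of groups had all 3 same-numbered correlations over 0.1. The 3 deviations of a group cancel out, so these values are not independent. Differently numbered libraries also reached 0.588 (BY4741 replicate 1 with deletion replicate 2). The sample titles state no pairing by number, and whether the groups are paired was not tested. With WT and BY4741 alone, the block gave 266 calls against 288 without it. Between libraries at most 0.181% of mutated bases had identical values. Alternatives used DESeq2 1.42.0, limma 3.58.1, other minimums and left-out libraries.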

Additional observations from a re-analysis of the deposited data

Results flagged for a closer look

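Of 58 groups of 6 libraries examined, 14 held a library far from the others. The groups share libraries and include bases chosen for large changes, and how many chance would give was not tested. WT pre-40S replicate 2 stood out in 6 of them: 25S U2843 at 46.9%, 18S U3 at 59.7%, 18S A65 at 5.48%, 25S A1545 at 20.04%, the 5′ ETS over 18S depth at 0.864, and the highest depth at the 5′ end of 18S at 553 times the median. BY4741 replicate 2 stood out among the mature libraries in 7: U3 at 0.693%, 25S U2924 at 0.0722%, A65 at 0.224%, A1545 at 0.505%, 18S U125 at 0.116%, 25S U1445 at 0.262%, and that depth ratio at 4.15. mL pre-40S replicate 2 stood out at 18S C342, at 0.587%.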

How the results depend on the processing

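Counts of called bases moved with the tool, the scale, the depth minimum and WT replicate 2. Of the untreated comparison's 572 calls, DESeq2 gave 1283, limma on log2 odds 2649, the library factor 945, a minimum depth of 100 or 200 71 or 38 (304 and 99 bases tested), a minimum of 20 without WT replicate 2 359, a mean rate of at least 0.005 118, and WT pre-40S alone 337. Leaving out 1 library gave 257 (without WT replicate 2) to 608. For WT against BY4741 (314 calls) the counts were 679 with DESeq2, 2242 with limma, 681 with the library factor and 190 with it and no deep bases, 484, 68 and 40 at depths of 20, 100 and 200, 69 at a depth of 20 without WT replicate 2, 89 by mean rate, and 31 to 379 with 1 library left out. For mL against BY4741 (518) they were, in that order, 868, 1812, 164, 96, 8.2e+02, 35, 9, 816, 101, and 237 (without mL replicate 3) to 567. For mL against WT (7) they were 0 with limma, 54 with the factor, 2 with it and no deep bases, 2 with no deep bases, 0 at a depth of 20 with or without WT replicate 2, 15 at 200, 0 by mean rate, 0 with WT replicate 1 left out of depth rule and fit, and 0 to 46 with 1 library left out, where the counts of 0 had 12 to 440 bases at an unadjusted p under 0.05. For treated G and U (487) they were 1008 with DESeq2, 2559 with limma, 99 with the factor, 286 at a depth of 200, 168 by mean rate, and 260 (without mL replicate 2) to 542. limma adds 0.5 to each count, which by construction raises shallow libraries. Higher depth minimums test fewer bases, at 200 mostly those of the deep stretch of 18S. The causes of the other shifts were not tested.

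Signs turned at G1575 with limma (0.0319), at C1773 with the factor (-0.356, and -0.0269 without deep bases), at C2278 with the factor (-1.51, and -1.18 without deep bases), with WT replicate 3 left out (-4.04) or mL replicate 2 left out (-3.85; up to 0.835 with other libraries left out), and at C2870 with WT replicate 2 left out (-2.92; up to 2.77 with others). Where a left-out library turned the sign at C2278 or C2870, its group had no mutation left there. A1782, C1280 and C342 were called in every alternative run. The depth, sequence-context and combined alternatives without deep bases or bases before AG and the fits of WT and BY4741 alone were chosen after seeing the data. With the replicate block over all 12 libraries 568 bases were called in the untreated comparison, 331 between WT and BY4741, 552 between mL and BY4741, 395 in the treated comparison and 23 between mL and WT; of the named bases it ended the call of U1191 alone (-1.64, adjusted p = 0.075). Depth in the pre-40S libraries, 54 to 610 reads, limits every low rate there.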

Other observations

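In the DMS-treated libraries, 25S U3275 was lower in pre-40S particles, at a mean of 1.19% against 3.70% in mature ribosomes (n = 6 each, log2 -1.90, SE 0.381, edgeR adjusted p = 2.81e-05). Without DMS the same base had 0% and 0.0287%. 18S U558 was also lower in treated pre-40S libraries, at 0.142% against 0.760% (log2 -2.53, SE 0.531, edgeR adjusted p = 7.40e-05), with 0.0967% and 0.0335% untreated. These bases were picked after their values were seen.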
